A study of Mus musculus with 6 samples.

Results

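Proteasome genes were read in 6 RNA sequencing libraries of common dendritic cell progenitors (CDPs), the bone marrow cells from which dendritic cells arise. They were taken as every gene whose symbol starts with Psma, Psmb, Psmc, Psmd, Psme, Psmf or Psmg and a number, without the interferon-induced Psmb8, Psmb9 and Psmb10. This gave 46 of the 16135 genes listed in any library, and all 46 had reads in all 6 libraries. All CDPs were from wildtype C57BL/6 mice 6 to 8 weeks old and were flow-sorted by CD115, the M-CSF receptor, and by Ly6C, a surface antigen of monocytes and their precursors. Each of the 3 sorted subsets has 2 libraries: CD115-Ly6C- cells, CD115+Ly6C+ cells, and cells that are CD115+Ly6C-. Nothing in the labels ties a subset's libraries to different mice or different sorts, so p-values measure only the spread between these libraries, which may be technical.

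The proteasome is the protease that destroys ubiquitin-tagged proteins and makes most of the peptides shown on MHC class I. Its barrel-shaped core particle is built of alpha subunits, which form the outer rings and the gate, and beta subunits, which form the inner rings and carry the proteolytic sites. The regulatory particle sits on the gate: ATPases of its base unfold the substrate, other base subunits are scaffolds or receptors, and its lid removes the ubiquitin chain. Chaperones help both particles to assemble, and separate activators and an inhibitor can take the place of the regulatory particle. Of the 46 genes, 15 encode core subunits (8 alpha, 7 beta) and 17 regulatory subunits (6 base ATPases, 3 other base subunits, 8 of the lid). A further 7 encode assembly chaperones (4 for the core, 3 for the base) and 6 encode activators or the inhibitor. Psmc3ip matches the pattern of the symbol only: it encodes a meiotic recombination factor and is no proteasome subunit.

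The libraries held 17961541 to 19450329 expected counts, and the 46 genes took 0.928% and 0.950% of them in CD115-Ly6C- CDPs, 1.17% and 1.24% in CD115+Ly6C+ CDPs, and 1.12% and 1.10% in CD115+Ly6C- CDPs. All 5 CDP markers (Flt3, Csf1r, Kit, Irf8, Cd34) had reads in every library. In CD115-Ly6C- CDPs against CD115+Ly6C+ CDPs the progenitor genes Flt3, Kit and Cd34 were higher (log2 fold changes 1.62, 1.73 and 1.28) and Csf1r, the gene of CD115, was lower (-1.20). Flt3, Kit and Cd34 also passed between CD115+Ly6C+ CDPs and CD115+Ly6C- CDPs, where they were lower in CD115+Ly6C+ CDPs. In CD115-Ly6C- CDPs against CD115+Ly6C- CDPs these genes were higher (log2 fold changes 0.74, 0.82 and 0.43) and Csf1r was lower (-0.97), all past the threshold. B cell genes summed to 91.7 to 92.2 FPKM in CD115-Ly6C- CDPs, 81.3 to 89.3 FPKM in CD115+Ly6C+ CDPs, and 80.1 to 83.1 FPKM in CD115+Ly6C- CDPs. Most of that was Cd79b, which passed in no comparison by edgeR, while Cd79a had 13.0 and 10.3 FPKM in CD115-Ly6C- CDPs against 0.18 to 1.33 FPKM in the other libraries and was higher against both subsets, and Ms4a1 and Pax5 stayed under 1 FPKM. T cell genes summed to 1.67 to 1.75 FPKM in CD115-Ly6C- CDPs, 0.39 to 1.31 FPKM in CD115+Ly6C+ CDPs, and 0.21 to 0.58 FPKM in CD115+Ly6C- CDPs; Cd4 was higher in CD115-Ly6C- CDPs against both, and Cd3e, Cd3d and Cd3g were at 0 in at least 1 library. Erythroid genes summed to at most 20.4 FPKM in any library. The part of these markers in the proteasome values was not tested. In bulk RNA, fewer cells that express a gene and less RNA per cell cannot be told apart.

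Within a particle the genes differed more in level than the subsets did. In FPKM, which is per gene length, the mean over the 6 libraries lay between 103 and 874 for the core genes other than Psma8, with a median of 367 over all 15. It lay between 56.5 and 272 for the regulatory genes (median 156), and between 23.5 and 118 for the assembly chaperones (median 70.8). Psma7 (chromosome 2, 180036367 to 180042464 of GRCm38), an alpha ring gene, had the highest level of the 46, at 563 and 604 FPKM in CD115-Ly6C- CDPs, 1046 and 1295 in CD115+Ly6C+ CDPs, and 869 and 866 in CD115+Ly6C- CDPs. Psma8, the testis relative of Psma7, had the lowest, with a mean of 4.82 FPKM. Among beta genes the mean level was highest for Psmb2 (606 FPKM) and lowest for Psmb5 (259 FPKM). Of the base genes, the ATPases Psmc3 and Psmc2 stood at the ends with 268 and 92.6 FPKM, and the ubiquitin receptor gene Psmd4 and the scaffold gene Psmd1 with 177 and 105 FPKM. Lid genes ran from Psmd14, the deubiquitinase of the lid (272 FPKM), to Psmd3 (56.5 FPKM), assembly genes from Psmd5 (118 FPKM) to Psmd9 (23.5 FPKM), and activator genes from Psme2 (603 FPKM) to Psme4 (6.32 FPKM).

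**Figure D1:**
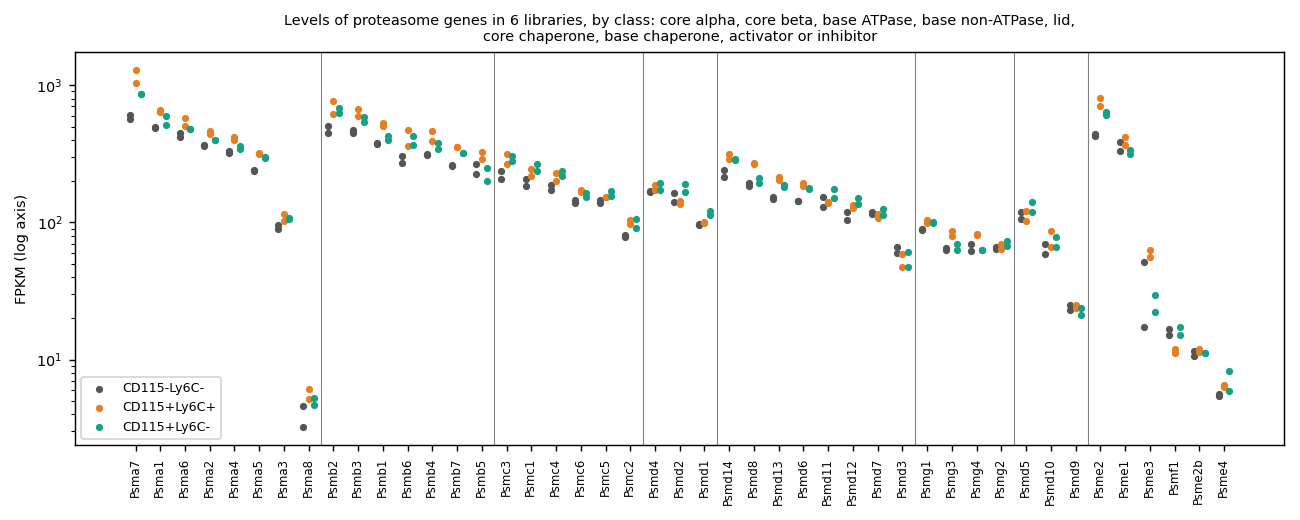
Level of each proteasome gene (FPKM, log axis) in the 6 libraries, by class and within a class by mean level; each point is 1 library, coloured by subset, and Psmc3ip is not drawn. Apart from Psma3 and Psma8 (means of 103 and 4.82 FPKM), core genes lie above most others, and Psma7 leads with a mean of 874 FPKM.

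Promoter windows from RefSeq (GRCm38.p6; 250 bases before to 50 after a start) matched 38 of the 46 genes, in 41 windows. Psma8, Psmb1, Psmb2, Psmb7, Psmc3, Psmd3, Psmd7 and Psmg2 were not matched. Letters known as sites of factors that act on proteasome genes were searched on both strands, each motif on its own, so that matches may overlap. The ETS letters CCGGAAG stood in 10 of 15 windows of regulatory genes (66.7%), against 1 of 12 windows of core genes (8.33%), 8.86% of all 32851 windows and 18.1% of the 11994 windows of genes tested here. The NF-Y letters CCAAT stood in 6 of 12 core windows and 4 of 15 regulatory windows (26.7%), against 37.4% of all windows. The letters TGACNNNGC of the antioxidant response element stood in 16.7% of core windows and 13.3% of regulatory windows, against 12.4% of all windows. These are shares of letters, not binding sites, and no test was made of them. Shown here are the windows of 2 core genes, Psma7, the gene with the largest difference that passed the test, and the catalytic gene Psmb5, and of 2 lid genes that carry the ETS letters, Psmd13 and Psmd12. They lie at chr2:180042415-180042714 (- strand), chr14:54617946-54618245 (- strand), chr7:140882144-140882443 (+ strand) and chr11:107479278-107479577 (+ strand), and are written 5′ to 3′ along the gene. Capitals mark matches to any of the motifs on either strand, with positions counted from 0 at the start: CCAAT at -196 in Psma7, the antioxidant response letters at -47 in Psmb5, the ETS letters at -6 in Psmd13, and in Psmd12 the ETS letters at -17 and the antioxidant response letters at -247.
Psma7: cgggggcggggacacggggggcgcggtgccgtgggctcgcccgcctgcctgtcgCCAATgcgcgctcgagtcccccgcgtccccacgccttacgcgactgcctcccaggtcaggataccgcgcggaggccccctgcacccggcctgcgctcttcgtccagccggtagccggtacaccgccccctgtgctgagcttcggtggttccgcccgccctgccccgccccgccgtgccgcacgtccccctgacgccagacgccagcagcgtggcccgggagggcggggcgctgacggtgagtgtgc
Psmb5: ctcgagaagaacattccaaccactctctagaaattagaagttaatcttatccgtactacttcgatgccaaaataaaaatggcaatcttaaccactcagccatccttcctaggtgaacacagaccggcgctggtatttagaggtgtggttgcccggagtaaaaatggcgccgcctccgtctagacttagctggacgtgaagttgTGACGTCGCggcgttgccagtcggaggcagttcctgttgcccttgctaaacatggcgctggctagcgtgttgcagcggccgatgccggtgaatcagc
Psmd13: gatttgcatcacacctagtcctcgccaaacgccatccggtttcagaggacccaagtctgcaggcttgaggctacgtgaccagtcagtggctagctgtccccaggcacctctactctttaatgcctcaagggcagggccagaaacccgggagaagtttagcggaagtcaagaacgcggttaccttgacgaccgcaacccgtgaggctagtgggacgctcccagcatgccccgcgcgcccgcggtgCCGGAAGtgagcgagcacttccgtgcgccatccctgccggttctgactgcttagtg
Psmd12: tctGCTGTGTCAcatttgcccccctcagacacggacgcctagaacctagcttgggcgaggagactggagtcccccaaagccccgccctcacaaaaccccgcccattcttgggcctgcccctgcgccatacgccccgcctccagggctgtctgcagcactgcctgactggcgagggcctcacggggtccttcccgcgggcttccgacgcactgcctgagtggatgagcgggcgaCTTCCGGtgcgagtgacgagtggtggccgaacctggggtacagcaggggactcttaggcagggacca

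The 46 genes took the smallest share of counts in both CD115-Ly6C- libraries and the largest in both CD115+Ly6C+ libraries. Values by library are given as CPM, the expected counts brought to one library size with TMM scaling, and each pair of subsets was tested with edgeR's quasi-likelihood test across 12127 genes, among them all 46. In CD115-Ly6C- CDPs against CD115+Ly6C+ CDPs, 29 of the 46 genes were lower and 0 higher at an adjusted p under 0.05, where 19.2% of all genes tested were lower and 20.1% higher. In CD115-Ly6C- CDPs against CD115+Ly6C- CDPs, 15 were lower and 0 higher, where 6.78% of all genes were lower and 8.43% higher. Neither count of 0 had a gene at an unadjusted p under 0.05 by edgeR, and DESeq2 called 0 higher in both comparisons as well. In CD115+Ly6C+ CDPs against CD115+Ly6C- CDPs, 4 were higher and 0 lower, where 5.26% of all genes were higher and 4.34% lower, and 4 of 46 (8.70%) is close to that share. In that comparison 1 gene was lower at an unadjusted p under 0.05 by edgeR and 0 by DESeq2 after adjustment. Both CD115-Ly6C- libraries lay below both CD115+Ly6C+ libraries in 41 of the 46 genes (34.8% of all genes) and above them in Psmf1 (37.8% of all genes). They lay below both CD115+Ly6C- libraries in 39 genes (29.8% of all genes) and above them in 0 (32.1%). Both CD115+Ly6C+ libraries lay above both CD115+Ly6C- libraries in 25 genes (28.8% of all genes) and below them in 3 (28.4%). Of the genes lower in CD115-Ly6C- CDPs by edgeR, 14 were lower against both CD115+ subsets, 15 against CD115+Ly6C+ CDPs alone and Psmd1 against CD115+Ly6C- CDPs alone. The comparisons share libraries, and whether a gene differed more from one CD115+ subset than from the other was tested only by the comparison of those 2 subsets. EdgeR made no call in any comparison for 16 genes: Psma8, Psmc5, Psmd2, Psmd3, Psmd4, Psmd5, Psmd7, Psmd9, Psmd10, Psmd11, Psmg2, Psme2b, Psme3, Psme4, Psmf1 and Psmc3ip.

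In the text, a gene that passed or was called did so by edgeR unless DESeq2 is named. DESeq2 made every edgeR call and some more: 33 genes were lower in CD115-Ly6C- CDPs against CD115+Ly6C+ CDPs (20.9% of all genes lower, 19.8% higher), 22 were lower against CD115+Ly6C- CDPs (9.75% lower, 10.3% higher), and 9 were higher in CD115+Ly6C+ CDPs against CD115+Ly6C- CDPs (8.44% higher, 6.5% lower). The genes it added were Psmc5, Psmd4, Psmd10 and Psmc3ip in the first comparison, Psma1, Psma3, Psmb3, Psmb4, Psmc5, Psmc6 and Psme4 in the second, and Psma4, Psmb4, Psme1, Psme2 and Psmg3 in the third.

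How many genes passed depended on the scaling and on single libraries. With library totals in place of TMM, the median log2 fold change of all genes tested moved to 0.22, 0.14 and -0.08 (in the order of comparisons above), from 0.03, 0.02 and -0.01. The proteasome counts then were 20 lower and 1 higher (Psmf1, the inhibitor gene), 3 lower (Psma7, Psmb2, Psme2) and 1 higher (Psmd8). Of all genes, 12.5%, 3.95% and 6.41% were lower and 28.9%, 11.4% and 4% higher under that scaling. Against CD115+Ly6C+ CDPs, 19 were lower without CD115+Ly6C+ replicate 2, and 17 of the 29 calls held whichever library was left out. Against CD115+Ly6C- CDPs, 0 were lower without CD115+Ly6C- replicate 1 or without CD115-Ly6C- replicate 1, where 19 and 16 had an unadjusted p under 0.05 by edgeR, 3 were lower without CD115+Ly6C- replicate 2, and 5 were lower and 1 (Psme3) higher without CD115-Ly6C- replicate 2. Between the CD115+ subsets, 0 were higher without CD115+Ly6C- replicate 1, CD115+Ly6C- replicate 2 or CD115+Ly6C+ replicate 2, where 7, 10 and 10 had an unadjusted p under 0.05 by edgeR, 1 was higher without CD115+Ly6C+ replicate 1 and 2 without CD115-Ly6C- replicate 2. None of the calls of these last 2 comparisons held in every such fit.

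**Figure D2:**
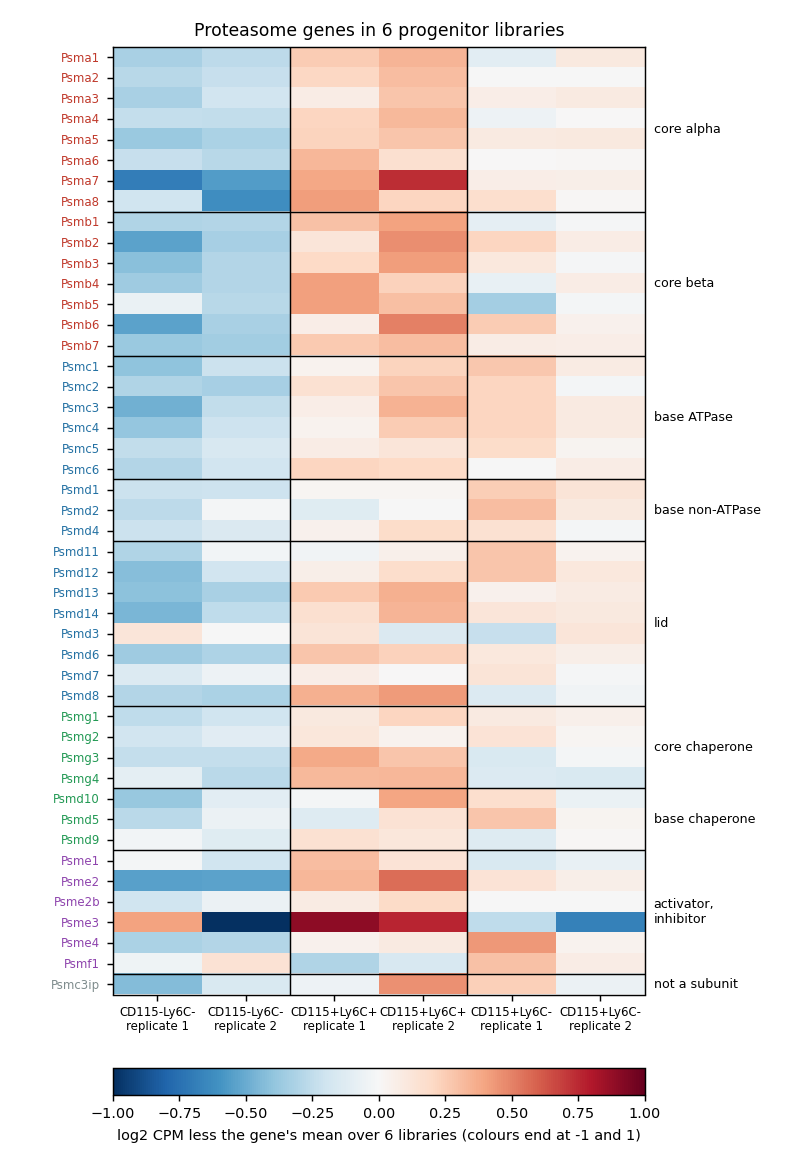
Each row is a proteasome gene and each column a library; colour is log2 CPM less the gene's mean over the 6 libraries (colours end at -1 and 1), and symbols are coloured by particle as in the plot of fold changes. Most rows are blue in CD115-Ly6C- CDPs and reddest in CD115+Ly6C+ CDPs. Of the genes that passed by edgeR between these subsets, Psma7 has the widest difference (402 and 443 CPM in CD115-Ly6C- CDPs, 854 and 1086 CPM in CD115+Ly6C+ CDPs). Psme3, which did not pass, differs between the CD115-Ly6C- libraries (115 and 40.0 CPM).

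**Figure D3:**
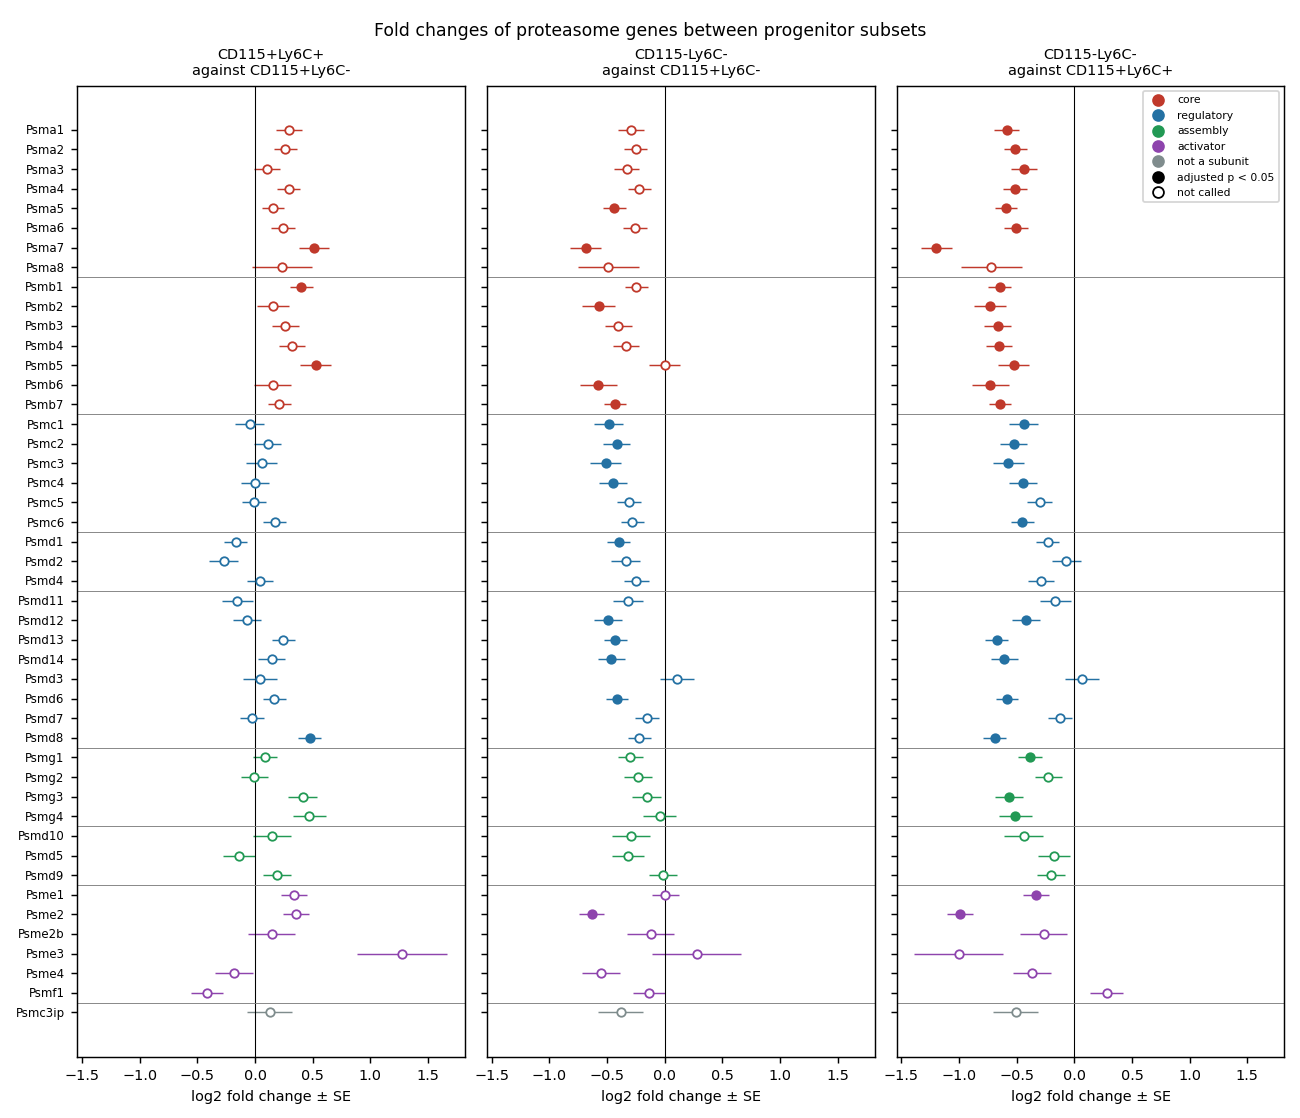
Log2 fold change of each proteasome gene in the 3 comparisons (first-named subset over the second), with bars of 1 SE; filled points passed an edgeR adjusted p of 0.05, and colours give the particle. In CD115-Ly6C- CDPs against CD115+Ly6C+ CDPs 29 points are filled, all below 0, and 14 of them are core genes.

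Alpha subunit genes of the core were lower in CD115-Ly6C- CDPs than in CD115+Ly6C+ CDPs in 7 of 8 cases, all but Psma8. Of all genes tested, 19.2% were lower there. With the trend of expression with length removed (below), only Psma3 and Psma7 of the 8 still passed there by edgeR. Psma7 had 402 and 443 CPM in CD115-Ly6C- CDPs, 854 and 1086 CPM in CD115+Ly6C+ CDPs, and 683 and 677 CPM in CD115+Ly6C- CDPs. Both CD115-Ly6C- libraries lay below the others and both CD115+Ly6C+ libraries above them, and Psma7 passed in all 3 comparisons. Its log2 fold change was -1.20 (SE 0.13) in CD115-Ly6C- CDPs against CD115+Ly6C+ CDPs, -0.69 (SE 0.13) against CD115+Ly6C- CDPs, and 0.51 (SE 0.13) in CD115+Ly6C+ CDPs against CD115+Ly6C- CDPs (edgeR adjusted p = 3.02e-04, 0.0125 and 0.0446). Psma5 (chromosome 3, 108256926 to 108279952) had 228 and 237 CPM in CD115-Ly6C- CDPs, 344 and 358 CPM in CD115+Ly6C+ CDPs, and 314 and 316 CPM in CD115+Ly6C- CDPs. It was lower in CD115-Ly6C- CDPs than in both other subsets (edgeR adjusted p = 0.00205 and 0.0220), and no difference passed between the CD115+ subsets (edgeR adjusted p = 0.334). Psma1 had 485 and 507 CPM in CD115-Ly6C- CDPs, 723 and 768 CPM in CD115+Ly6C+ CDPs, and 566 and 649 CPM in CD115+Ly6C- CDPs, and passed only in CD115-Ly6C- CDPs against CD115+Ly6C+ CDPs (log2 fold change -0.59, SE 0.11, edgeR adjusted p = 0.00378). Psma2, Psma3, Psma4 and Psma6 likewise passed in that comparison alone by edgeR, while DESeq2 also called Psma1 and Psma3 lower against CD115+Ly6C- CDPs and Psma4 higher in CD115+Ly6C+ CDPs against CD115+Ly6C- CDPs. Against CD115+Ly6C+ CDPs these 4 had log2 fold changes of -0.52 to -0.44. Psma4 overlaps the gene AY074887, and the strand of the reads is not stated, so their reads cannot be told apart. Psma8 had 6.04 and 4.53 CPM in CD115-Ly6C- CDPs, 9.31 and 8.08 CPM in CD115+Ly6C+ CDPs, and 7.816 and 7.003 CPM in CD115+Ly6C- CDPs, the same order, with an edgeR adjusted p of 0.0591 between the first 2 subsets.

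All 7 beta subunit genes were lower in CD115-Ly6C- CDPs than in CD115+Ly6C+ CDPs, by log2 fold changes of -0.73 (Psmb2) to -0.53 (Psmb5). Of all genes tested, 19.2% were lower there. With the trend of expression with length removed (below), no beta gene passed in any comparison by edgeR. Against CD115+Ly6C+ CDPs the edgeR adjusted p of the beta genes was then 0.0673 to 0.687. Among the catalytic genes, Psmb5 (chromosome 14, 54614120 to 54617995), which carries the chymotrypsin-like site, had 170 and 147 CPM in CD115-Ly6C- CDPs, 236 and 219 CPM in CD115+Ly6C+ CDPs, and 141 and 176 CPM in CD115+Ly6C- CDPs. CD115+Ly6C+ CDPs lay above both other subsets, which overlapped: the log2 fold change was -0.53 (SE 0.14) in CD115-Ly6C- CDPs against CD115+Ly6C+ CDPs, -0.00 (SE 0.14) against CD115+Ly6C- CDPs, and 0.53 (SE 0.14) in CD115+Ly6C+ CDPs against CD115+Ly6C- CDPs (edgeR adjusted p = 0.0154, 1 and 0.0455). Psmb6 (chromosome 11, 70525324 to 70527858), of the caspase-like site, had 214 and 247 CPM in CD115-Ly6C- CDPs, 324 and 440 CPM in CD115+Ly6C+ CDPs, and 369 and 319 CPM in CD115+Ly6C- CDPs. Here CD115-Ly6C- CDPs stood apart and the CD115+ subsets overlapped. The log2 fold changes were -0.73 (SE 0.16) against CD115+Ly6C+ CDPs and -0.58 (SE 0.16) against CD115+Ly6C- CDPs (edgeR adjusted p = 0.00776 and 0.0439). Each call of Psmb5 and of Psmb6 was lost when some single library was left out. Psmb7 (chromosome 2, 38588046 to 38643952), of the trypsin-like site, had 190 and 193 CPM in CD115-Ly6C- CDPs, 295 and 303 CPM in CD115+Ly6C+ CDPs, and 259 and 257 CPM in CD115+Ly6C- CDPs, and was lower in CD115-Ly6C- CDPs, with log2 fold changes of -0.64 (SE 0.10) and -0.43 (SE 0.10) (edgeR adjusted p = 0.00129 and 0.0220).

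The 4 beta genes without a catalytic site were all lower in CD115-Ly6C- CDPs than in CD115+Ly6C+ CDPs. Psmb1 had 300 and 302 CPM in CD115-Ly6C- CDPs, 454 and 490 CPM in CD115+Ly6C+ CDPs, and 348 and 366 CPM in CD115+Ly6C- CDPs. It was higher in CD115+Ly6C+ CDPs than in CD115+Ly6C- CDPs (log2 fold change 0.40, SE 0.10, edgeR adjusted p = 0.0417) and lower in CD115-Ly6C- CDPs than in CD115+Ly6C+ CDPs (log2 fold change -0.65, SE 0.10, edgeR adjusted p = 0.00154), and passed no test between CD115-Ly6C- CDPs and CD115+Ly6C- CDPs (edgeR adjusted p = 0.131). Psmb2 had 282 and 326 CPM in CD115-Ly6C- CDPs, 444 and 564 CPM in CD115+Ly6C+ CDPs, and 474 and 430 CPM in CD115+Ly6C- CDPs, and was lower in CD115-Ly6C- CDPs than in both (log2 fold changes -0.73 and -0.57, edgeR adjusted p = 0.00433 and 0.0302). Psmb3 had 228 and 248 CPM in CD115-Ly6C- CDPs, 350 and 406 CPM in CD115+Ly6C+ CDPs, and 327 and 302 CPM in CD115+Ly6C- CDPs. Psmb4 had 219 and 229 CPM in CD115-Ly6C- CDPs, 374 and 330 CPM in CD115+Ly6C+ CDPs, and 267 and 296 CPM in CD115+Ly6C- CDPs. By edgeR both passed in CD115-Ly6C- CDPs against CD115+Ly6C+ CDPs alone, where they were lower (edgeR adjusted p = 0.00272 and 0.00247). Psmb3 missed the threshold against CD115+Ly6C- CDPs (edgeR adjusted p = 0.0502). DESeq2 called both lower in that comparison too, and Psmb4 higher in CD115+Ly6C+ CDPs against CD115+Ly6C- CDPs.

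The interferon-induced genes Psmb8, Psmb9 and Psmb10, whose products replace those of Psmb5, Psmb6 and Psmb7 in the immunoproteasome, were set beside their constitutive partners. Psmb8 had 659 and 740 CPM in CD115-Ly6C- CDPs, 786 and 909 CPM in CD115+Ly6C+ CDPs, and 844 and 818 CPM in CD115+Ly6C- CDPs, and passed in no comparison (edgeR adjusted p = 0.0870 to 0.899). Psmb9 had 209 and 213 CPM in CD115-Ly6C- CDPs, 269 and 280 CPM in CD115+Ly6C+ CDPs, and 211 and 239 CPM in CD115+Ly6C- CDPs. Psmb10 had 82.0 and 81.3 CPM in CD115-Ly6C- CDPs, 95.0 and 111 CPM in CD115+Ly6C+ CDPs, and 89.3 and 87.1 CPM in CD115+Ly6C- CDPs. Psmb9 and Psmb10 were lower in CD115-Ly6C- CDPs than in CD115+Ly6C+ CDPs, with log2 fold changes of -0.38 (SE 0.11) and -0.34 (SE 0.12) (edgeR adjusted p = 0.0216 and 0.0466), and in no other comparison. Per length, Psmb8 stood above Psmb5 in every library, with FPKM ratios of 2.58 and 3.35 in CD115-Ly6C- CDPs, 2.21 and 2.76 in CD115+Ly6C+ CDPs, and 3.97 and 3.09 in CD115+Ly6C- CDPs. Psmb9 and Psmb6 were close to even, with ratios of 1.33 and 1.18 in CD115-Ly6C- CDPs, 1.13 and 0.868 in CD115+Ly6C+ CDPs, and 0.784 and 1.02 in CD115+Ly6C- CDPs. Psmb10 stood below Psmb7 throughout, with ratios of 0.313 and 0.306 in CD115-Ly6C- CDPs, 0.234 and 0.266 in CD115+Ly6C+ CDPs, and 0.250 and 0.245 in CD115+Ly6C- CDPs. CD115-Ly6C- CDPs overlapped the other subsets in the Psmb8 ratio but lay above both in the ratios of Psmb9 and Psmb10, and these ratios were not tested.

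Base ATPase genes were lower in CD115-Ly6C- CDPs than in both CD115+ subsets, in 5 of 6 cases against CD115+Ly6C+ CDPs and 4 of 6 against CD115+Ly6C- CDPs. Of all genes tested, 19.2% and 6.78% were lower in these comparisons. No base ATPase gene passed between the CD115+ subsets (0 at an unadjusted p under 0.05 by edgeR, 0 called by DESeq2). Each of the ATPase calls was lost when some single library was left out. Psmc3 (chromosome 2, 91054016 to 91059438) had 280 and 330 CPM in CD115-Ly6C- CDPs, 410 and 498 CPM in CD115+Ly6C+ CDPs, and 455 and 416 CPM in CD115+Ly6C- CDPs. Psmc1 had 232 and 264 CPM in CD115-Ly6C- CDPs, 314 and 359 CPM in CD115+Ly6C+ CDPs, and 370 and 325 CPM in CD115+Ly6C- CDPs. In both genes CD115-Ly6C- CDPs lay below libraries of the CD115+ subsets that overlapped. The log2 fold changes against CD115+Ly6C+ CDPs and CD115+Ly6C- CDPs were -0.57 (SE 0.13) and -0.51 (SE 0.13) for Psmc3 (edgeR adjusted p = 0.0104 and 0.0369), and -0.44 (SE 0.12) and -0.49 (SE 0.12) for Psmc1 (edgeR adjusted p = 0.0219 and 0.0337). Psmc2 had 120 and 118 CPM in CD115-Ly6C- CDPs, 164 and 179 CPM in CD115+Ly6C+ CDPs, and 172 and 146 CPM in CD115+Ly6C- CDPs, and was lower in CD115-Ly6C- CDPs than in both (edgeR adjusted p = 0.00778 and 0.0439). Psmc4 was lower in both comparisons, Psmc6 against CD115+Ly6C+ CDPs alone by edgeR, and Psmc5 had an edgeR adjusted p of 0.0501 against CD115+Ly6C+ CDPs.

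Of the 3 other base genes, Psmd1 alone passed by edgeR, and DESeq2 also called Psmd4 lower in CD115-Ly6C- CDPs against CD115+Ly6C+ CDPs. Psmd1, which with Psmd2 encodes the scaffolds of the base, had 277 and 277 CPM in CD115-Ly6C- CDPs, 326 and 326 CPM in CD115+Ly6C+ CDPs, and 381 and 351 CPM in CD115+Ly6C- CDPs. The 3 subsets did not overlap, with CD115+Ly6C- CDPs highest, and Psmd1 passed in CD115-Ly6C- CDPs against CD115+Ly6C- CDPs alone (log2 fold change -0.40, SE 0.10, edgeR adjusted p = 0.0317). Psmd1 overlaps Htr2b, with which reads may be shared. Psmd4, the ubiquitin receptor gene, had 177 and 186 CPM in CD115-Ly6C- CDPs, 211 and 233 CPM in CD115+Ly6C+ CDPs, and 228 and 203 CPM in CD115+Ly6C- CDPs, with edgeR adjusted p of 0.0671 to 0.831. Psmd2, which docks the shuttles that bring substrates, had 367 and 434 CPM in CD115-Ly6C- CDPs, 403 and 437 CPM in CD115+Ly6C+ CDPs, and 543 and 470 CPM in CD115+Ly6C- CDPs, and passed in no comparison.

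Lid genes were split: 5 of 8 were lower in CD115-Ly6C- CDPs than in CD115+Ly6C+ CDPs, and Psmd3, Psmd7 and Psmd11 passed in no comparison. Of all genes tested, 19.2% were lower in CD115-Ly6C- CDPs than in CD115+Ly6C+ CDPs. Psmd8 (chromosome 7, 29174187 to 29180673) had 242 and 237 CPM in CD115-Ly6C- CDPs, 378 and 396 CPM in CD115+Ly6C+ CDPs, and 269 and 289 CPM in CD115+Ly6C- CDPs. Its 3 subsets did not overlap. It was lower in CD115-Ly6C- CDPs than in CD115+Ly6C+ CDPs (log2 fold change -0.69, SE 0.10, edgeR adjusted p = 0.00111). It was higher in CD115+Ly6C+ CDPs than in CD115+Ly6C- CDPs (log2 fold change 0.47, SE 0.10, edgeR adjusted p = 0.0255). No other of the 17 regulatory genes was called between the CD115+ subsets, while Sem1, a lid subunit gene outside that set, was. Psmd13 (chromosome 7, 140882394 to 140898642) had 187 and 199 CPM in CD115-Ly6C- CDPs, 298 and 318 CPM in CD115+Ly6C+ CDPs, and 256 and 263 CPM in CD115+Ly6C- CDPs. Psmd14 (chromosome 2, 61711694 to 61800376), the deubiquitinase, had 272 and 313 CPM in CD115-Ly6C- CDPs, 418 and 473 CPM in CD115+Ly6C+ CDPs, and 406 and 399 CPM in CD115+Ly6C- CDPs. These 2 genes were lower in CD115-Ly6C- CDPs than in both CD115+ subsets, with log2 fold changes of -0.67 (SE 0.10) and -0.43 (SE 0.10) for Psmd13 and -0.61 (SE 0.12) and -0.46 (SE 0.12) for Psmd14 (edgeR adjusted p = 0.00130, 0.0265, 0.00413 and 0.0325).

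Psmd6 and Psmd12 completed the lid genes that were lower in CD115-Ly6C- CDPs. Psmd6 had 150 and 154 CPM in CD115-Ly6C- CDPs, 232 and 224 CPM in CD115+Ly6C+ CDPs, and 206 and 199 CPM in CD115+Ly6C- CDPs (log2 fold changes -0.58 and -0.42, edgeR adjusted p = 0.00216 and 0.0262). Psmd12 had 147 and 173 CPM in CD115-Ly6C- CDPs, 206 and 223 CPM in CD115+Ly6C+ CDPs, and 239 and 212 CPM in CD115+Ly6C- CDPs (log2 fold changes -0.42 and -0.49, edgeR adjusted p = 0.0239 and 0.0299). In Psmd6 the CD115+ subsets were apart and in Psmd12 they overlapped. Psmd3 had 121 and 112 CPM in CD115-Ly6C- CDPs, 122 and 101 CPM in CD115+Ly6C+ CDPs, and 95.4 and 121 CPM in CD115+Ly6C- CDPs. All 3 subsets overlapped in it, and its log2 fold changes were 0.06 (SE 0.15) in CD115-Ly6C- CDPs against CD115+Ly6C+ CDPs, 0.10 (SE 0.15) against CD115+Ly6C- CDPs, and 0.04 (SE 0.15) in CD115+Ly6C+ CDPs against CD115+Ly6C- CDPs. Psmd7, the partner of Psmd14 in the lid, had log2 fold changes of -0.15 to -0.03 and Psmd11 of -0.32 to -0.15, without a call.

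Set side by side, the core genes had a median log2 fold change of -0.64 in CD115-Ly6C- CDPs against CD115+Ly6C+ CDPs and the regulatory genes -0.44, beside 0.03 over all genes tested. Against CD115+Ly6C- CDPs the medians were -0.33 for core and -0.40 for regulatory genes, beside 0.02. In CD115+Ly6C+ CDPs against CD115+Ly6C- CDPs they were 0.26 for core and 0.04 for regulatory genes, beside -0.01. The core median lay 0.20 below that of the regulatory genes in the first of these comparisons (-0.20), 0.07 above it in the second and 0.22 above it in the third. Over all fits tried, core less regulatory ran from -0.27 to 0.01, from -0.07 to 0.13 and from 0.17 to 0.29. The second gap changed sign without CD115+Ly6C- replicate 1 (-0.07). Summed over its 15 genes, the core had 4902 and 4994 FPKM in CD115-Ly6C- CDPs, 6738 and 7258 FPKM in CD115+Ly6C+ CDPs, and 5966 and 6027 FPKM in CD115+Ly6C- CDPs. The 17 regulatory genes summed to 2439 and 2596 FPKM in CD115-Ly6C- CDPs, 2903 and 3051 FPKM in CD115+Ly6C+ CDPs, and 3082 and 2917 FPKM in CD115+Ly6C- CDPs. The core sum put the 3 subsets in order without overlap, while the regulatory sum, as deposited, set only CD115-Ly6C- CDPs apart. The ratio of core to regulatory sums was 2.01 and 1.92 in CD115-Ly6C- CDPs, 2.32 and 2.38 in CD115+Ly6C+ CDPs, and 1.94 and 2.07 in CD115+Ly6C- CDPs. Both CD115+Ly6C+ libraries lay above the other 4 in that ratio. Genes of a particle are not replicates, and no test was made of these sums and medians. The sums depend on the FPKM scale: the FPKM of a library summed to 584778 to 588892 in CD115-Ly6C- CDPs, 669556 to 671002 in CD115+Ly6C+ CDPs, and 599580 to 614113 in CD115+Ly6C- CDPs. With FPKM brought to the same total in every library (TPM), the regulatory sums were 4141 and 4439 in CD115-Ly6C- CDPs, 4327 and 4556 in CD115+Ly6C+ CDPs, and 5141 and 4750 in CD115+Ly6C- CDPs. CD115-Ly6C- CDPs then overlapped CD115+Ly6C+ CDPs, and CD115+Ly6C- CDPs stood apart, above both. Core sums on that scale were 8324 and 8540 in CD115-Ly6C- CDPs, 10041 and 10840 in CD115+Ly6C+ CDPs, and 9950 and 9815 in CD115+Ly6C- CDPs. These core sums kept their order without overlap, with the CD115+ subsets closer together.

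**Figure D4:**
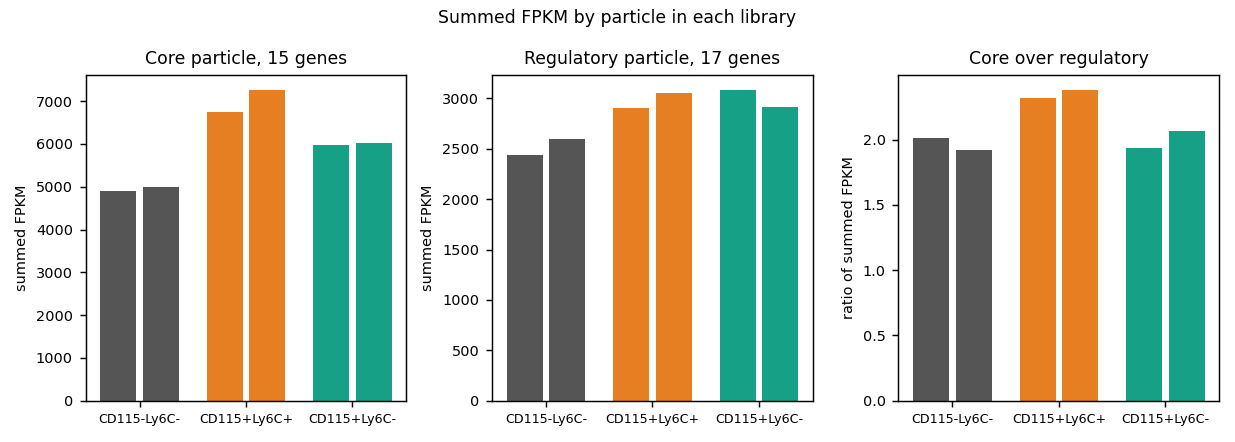
Bars give, for each library, the summed FPKM of 15 core genes (left), of 17 regulatory genes (middle) and the ratio of the sums (right); all axes start at 0. The ratio is 2.32 and 2.38 in CD115+Ly6C+ CDPs and 1.92 to 2.07 in the other libraries.

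Of the 7 assembly chaperone genes, 3 passed by edgeR, all of them in CD115-Ly6C- CDPs against CD115+Ly6C+ CDPs. There 19.2% of all genes tested were lower, and 37.9% of the 3033 shortest genes. Those shortest genes held 5 of the 7 assembly genes and all 3 that passed. Of the core chaperones, which help the alpha ring to assemble, Psmg1, Psmg3 and Psmg4 were lower in CD115-Ly6C- CDPs than in CD115+Ly6C+ CDPs (log2 fold changes -0.38, -0.57 and -0.51, edgeR adjusted p = 0.0215, 0.00768 and 0.0215) and Psmg2 was not called (-0.22, edgeR adjusted p = 0.165). None of the 4 passed against CD115+Ly6C- CDPs, or between the CD115+ subsets by edgeR, where DESeq2 called Psmg3. The edgeR calls of Psmg1 and Psmg4, unlike that of Psmg3, were each lost when some single library was left out. With the trend of expression with length removed (below), 0 of the 7 assembly genes passed by edgeR. The base chaperone genes Psmd5, Psmd9 and Psmd10 passed in no comparison by edgeR, while DESeq2, and edgeR with no filter, called Psmd10 lower in CD115-Ly6C- CDPs against CD115+Ly6C+ CDPs. Psmd5 had 184 and 213 CPM in CD115-Ly6C- CDPs, 202 and 245 CPM in CD115+Ly6C+ CDPs, and 267 and 226 CPM in CD115+Ly6C- CDPs. Psmd9 had 56.3 and 52.5 CPM in CD115-Ly6C- CDPs, 63.7 and 61.8 CPM in CD115+Ly6C+ CDPs, and 52.3 and 57.8 CPM in CD115+Ly6C- CDPs. Psmd10, the gene of gankyrin, overlaps Atg4a and lay between 68.8 and 118 CPM.

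Psme1 and Psme2 encode the partners of an interferon-induced activator that binds the core, and both were lower in CD115-Ly6C- CDPs than in CD115+Ly6C+ CDPs. Psme2 (chromosome 14, 55587440 to 55591101) had 291 and 293 CPM in CD115-Ly6C- CDPs, 536 and 625 CPM in CD115+Ly6C+ CDPs, and 466 and 442 CPM in CD115+Ly6C- CDPs. The 3 subsets did not overlap, and the log2 fold change was -0.99 (SE 0.11) in CD115-Ly6C- CDPs against CD115+Ly6C+ CDPs and -0.63 (SE 0.11) against CD115+Ly6C- CDPs (edgeR adjusted p = 3.34e-04 and 0.00891). Psme1 had 282 and 250 CPM in CD115-Ly6C- CDPs, 356 and 314 CPM in CD115+Ly6C+ CDPs, and 257 and 272 CPM in CD115+Ly6C- CDPs. It was lower in CD115-Ly6C- CDPs than in CD115+Ly6C+ CDPs (log2 fold change -0.33, SE 0.11, edgeR adjusted p = 0.0478), a call that was lost whichever library was left out (0.0613 to 0.271), and overlapped between CD115-Ly6C- CDPs and CD115+Ly6C- CDPs (0.01, SE 0.11). The ratio of Psme1 to Psme2 counts was 0.969 and 0.851 in CD115-Ly6C- CDPs, 0.663 and 0.503 in CD115+Ly6C+ CDPs, and 0.551 and 0.617 in CD115+Ly6C- CDPs, so that CD115-Ly6C- CDPs lay above both other subsets, which was not tested. Psme1 overlaps Emc9, and Psme2 shares sequence with its copy Psme2b (8.76 to 11.5 CPM), between which estimated counts may be split.

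The remaining activator genes and the inhibitor passed in no comparison by edgeR, while DESeq2 called Psme4 lower in CD115-Ly6C- CDPs against CD115+Ly6C- CDPs. Psme4, the gene of a large nuclear activator, had 22.2 and 22.5 CPM in CD115-Ly6C- CDPs, 28.4 and 29.3 CPM in CD115+Ly6C+ CDPs, and 37.2 and 28.3 CPM in CD115+Ly6C- CDPs. Psme3 and Psmf1 were singled out after their values were seen. Psme3, also of a nuclear activator, had 115 and 40.0 CPM in CD115-Ly6C- CDPs, 162 and 148 CPM in CD115+Ly6C+ CDPs, and 73.1 and 54.8 CPM in CD115+Ly6C- CDPs. Its log2 fold changes of -1.002 (SE 0.39) in CD115-Ly6C- CDPs against CD115+Ly6C+ CDPs and 1.28 (SE 0.39) in CD115+Ly6C+ CDPs against CD115+Ly6C- CDPs were among the largest of the 46 and did not pass (edgeR adjusted p = 0.0689 and 0.0741), with CD115-Ly6C- libraries that lay far apart. With no filter on low counts both passed. Psmf1, the inhibitor gene, ran the other way, at 47.2 and 53.7 CPM in CD115-Ly6C- CDPs, 39.5 and 43.6 CPM in CD115+Ly6C+ CDPs, and 59.6 and 51.1 CPM in CD115+Ly6C- CDPs (edgeR adjusted p = 0.0973 to 0.545), and was the 1 gene whose CD115-Ly6C- libraries both lay above those of CD115+Ly6C+ CDPs. It overlaps Tmem74b.

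Genes with short transcripts as a whole followed the same order as the proteasome genes. Length here is the transcript length that RSEM gave for each gene, averaged over libraries, not the span on the chromosome. Of the 46, 36 were among the 3033 shortest genes tested by that length (235 to 1773 nucleotides), among them 14 of 15 core and 13 of 17 regulatory genes. Of these 3033, 37.9% were lower in CD115-Ly6C- CDPs than in CD115+Ly6C+ CDPs (median log2 fold change -0.34), 10.9% lower than in CD115+Ly6C- CDPs (-0.13), and 11.2% higher in CD115+Ly6C+ CDPs than in CD115+Ly6C- CDPs (0.22). Of the 36 proteasome genes there, 27, 13 and 4 passed in these directions. Core genes were shorter than regulatory ones, with a median of 997 against 1564 nucleotides. Over the 32 core and regulatory genes, Spearman's rho between length and log2 fold change was 0.59 in CD115-Ly6C- CDPs against CD115+Ly6C+ CDPs, 0.02 against CD115+Ly6C- CDPs, and -0.70 in CD115+Ly6C+ CDPs against CD115+Ly6C- CDPs (0.33, 0.18 and -0.33 over all genes). These values are across genes of the same libraries, and genes are not independent replicates.

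With each library's trend of expression with length removed, fewer proteasome genes passed. Against CD115+Ly6C+ CDPs, 11 were lower in CD115-Ly6C- CDPs (23.9%) and 0 higher, where 16.3% of all genes were lower and 15.5% higher: the core genes Psma3 and Psma7, the regulatory genes Psmc2, Psmc3, Psmd1, Psmd6, Psmd8, Psmd13 and Psmd14, and Psme2 and Psme4. Against CD115+Ly6C- CDPs, 7 were lower (15.2%) and 0 higher, where 6.16% of all genes were lower and 7.49% higher: Psma7, Psmc3, Psmd1, Psmd12, Psmd13, Psme2 and Psme4. By particle, 2 of 15 core genes (13.3%) and 7 of 17 regulatory genes (41.2%) were lower against CD115+Ly6C+ CDPs. Against CD115+Ly6C- CDPs these were 1 (6.67%) and 4 (23.5%). The core shares thus lay near those of all genes (16.3% and 6.16%). Between the CD115+ subsets 0 were called by edgeR, with 2 higher and 0 lower at an unadjusted p under 0.05, where 3.34% of all genes were higher and 2.52% lower. Against CD115+Ly6C+ CDPs and CD115+Ly6C- CDPs, 0 were higher at an unadjusted p under 0.05 by edgeR. DESeq2 was not run with the trend removed. Psma7 and Psme2 stayed lower in CD115-Ly6C- CDPs against both subsets (edgeR adjusted p = 0.00198 and 0.0265 for Psma7, 0.00602 and 0.0255 for Psme2). The medians were -0.27 for core and -0.28 for regulatory genes against CD115+Ly6C+ CDPs, -0.23 and -0.36 against CD115+Ly6C- CDPs, and 0.06 and -0.11 between the CD115+ subsets. The core thus lay 0.01, 0.13 and 0.17 above the regulatory genes, beside gaps of -0.20, 0.07 and 0.22 with the trend left in. These gaps were not tested.

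**Figure D5:**
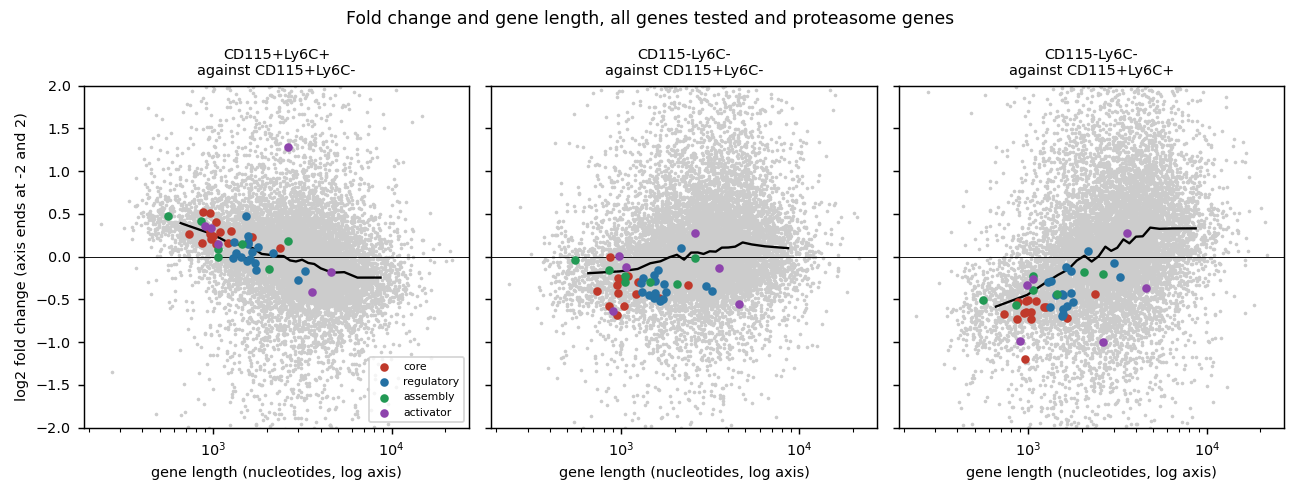
Log2 fold change against length (of a gene's transcripts, in nucleotides, log axis) for all genes tested (grey), with the median along length (black line) and proteasome genes coloured by particle. The y axis ends at -2 and 2. Most proteasome genes sit at the short end, 36 of 46 under 1773 nucleotides, where the black line itself is below 0 in CD115-Ly6C- CDPs against CD115+Ly6C+ CDPs (median -0.34 over the 3033 shortest genes).

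Genes of dividing cells and of neutrophil granules differed between the subsets as well. All 12 genes of the G2 and M phase list were lower in CD115-Ly6C- CDPs than in CD115+Ly6C+ CDPs and than in CD115+Ly6C- CDPs, with summed levels of 862 to 1036 FPKM in CD115-Ly6C- CDPs, 2079 to 2203 FPKM in CD115+Ly6C+ CDPs, and 1775 to 1918 FPKM in CD115+Ly6C- CDPs. Between the CD115+ subsets 2 of these 12 were higher in CD115+Ly6C+ CDPs. Late neutrophil granule genes summed to 370 to 812 FPKM in CD115-Ly6C- CDPs, 9452 to 10350.5 FPKM in CD115+Ly6C+ CDPs, and 523 to 2093 FPKM in CD115+Ly6C- CDPs. Of these 12 genes, 12 were lower in CD115-Ly6C- CDPs than in CD115+Ly6C+ CDPs, 1 was lower than in CD115+Ly6C- CDPs, and 10 were higher in CD115+Ly6C+ CDPs than in CD115+Ly6C- CDPs; Ly6g was at 0 in at least 1 library. Of all genes tested, 19.2% were lower in CD115-Ly6C- CDPs than in CD115+Ly6C+ CDPs and 6.78% lower than in CD115+Ly6C- CDPs. Between the CD115+ subsets 5.26% were higher in CD115+Ly6C+ CDPs. The part of these lists in the proteasome values was not tested.

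Proteins that work with the proteasome under other names were read from lists of genes. Of 12 partner genes found, 5 were lower and 2 higher in CD115-Ly6C- CDPs than in CD115+Ly6C+ CDPs (median log2 fold change -0.28). Of all genes tested, 19.2% were lower and 20.1% higher there. In CD115-Ly6C- CDPs against CD115+Ly6C- CDPs 3 were lower (median -0.11), where 6.78% of all genes were lower. In CD115+Ly6C+ CDPs against CD115+Ly6C- CDPs 1 was higher (median -0.03), where 5.26% of all genes were higher. Pomp, which matures the core, had 173 and 190 CPM in CD115-Ly6C- CDPs, 279 and 331 CPM in CD115+Ly6C+ CDPs, and 272 and 250 CPM in CD115+Ly6C- CDPs, and was lower in CD115-Ly6C- CDPs than in both (log2 fold changes -0.75 and -0.53, edgeR adjusted p = 0.00185 and 0.0242). Sem1, the smallest lid subunit, had 79.9 and 78.6 CPM in CD115-Ly6C- CDPs, 153 and 155 CPM in CD115+Ly6C+ CDPs, and 79.7 and 102 CPM in CD115+Ly6C- CDPs. CD115+Ly6C+ CDPs stood above both others in Sem1 (log2 fold change -0.96 in CD115-Ly6C- CDPs against it and 0.77 in it against CD115+Ly6C- CDPs, edgeR adjusted p = 7.70e-04 and 0.0117). The genes of the deubiquitinases Usp14 and Uchl5 were lower in CD115-Ly6C- CDPs than in both CD115+ subsets, with log2 fold changes of -0.51 to -0.38 (edgeR adjusted p = 0.0105 to 0.0311). Fbxo7, which encodes a binding partner of the Psmf1 protein, was higher in CD115-Ly6C- CDPs than in CD115+Ly6C+ CDPs, at 101 and 95.3 CPM in CD115-Ly6C- CDPs, 62.4 and 63.1 CPM in CD115+Ly6C+ CDPs, and 84.8 and 80.2 CPM in CD115+Ly6C- CDPs (log2 fold change 0.65, SE 0.11, edgeR adjusted p = 0.00216).

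Some genes upstream of the proteasome passed as well. Of all genes tested, 19.2% were lower and 20.1% higher in CD115-Ly6C- CDPs against CD115+Ly6C+ CDPs. Against CD115+Ly6C- CDPs these shares were 6.78% and 8.43%. Of 10 genes of shuttles and the unfoldase Vcp, Ubqln4 was higher in CD115-Ly6C- CDPs than in both CD115+ subsets and Ubqln2 lower than in CD115+Ly6C+ CDPs. Vcp itself lay between 712 and 782 CPM in all 6 libraries. Of 10 genes tied to the transcription of proteasome genes, Nfyb, a subunit of the CCAAT-binding factor NF-Y, had 80.7 and 77.0 CPM in CD115-Ly6C- CDPs, 106 and 111 CPM in CD115+Ly6C+ CDPs, and 101 and 102 CPM in CD115+Ly6C- CDPs. It was lower in CD115-Ly6C- CDPs than in both (log2 fold changes -0.46 and -0.36, edgeR adjusted p = 0.00826 and 0.0489). Mafk, a small Maf partner of the Nrf factors, was higher in CD115-Ly6C- CDPs than in CD115+Ly6C+ CDPs, at 74.0 and 73.7 CPM in CD115-Ly6C- CDPs, 35.8 and 34.3 CPM in CD115+Ly6C+ CDPs, and 37.9 and 59.7 CPM in CD115+Ly6C- CDPs (log2 fold change 1.07, SE 0.20, edgeR adjusted p = 0.00342). Mafg, of the same family, was lower there at 0 to 2.45 CPM (edgeR adjusted p = 0.0468). Nfe2l1, the gene of the factor that raises proteasome genes when the proteasome is blocked, had 45.0 and 32.6 CPM in CD115-Ly6C- CDPs, 27.2 and 21.7 CPM in CD115+Ly6C+ CDPs, and 18.3 and 28.1 CPM in CD115+Ly6C- CDPs, and did not pass (edgeR adjusted p = 0.0562 to 0.873).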

How the data were processed

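PolyA RNA of 6 sorted CDP samples (3 subsets, 2 libraries each) was sequenced. Per the submitters' processing notes, which name Bowtie2, RSEM and mm10, the authors deposited RSEM expected counts and FPKM for each gene and library, with no tool version and no strand setting given in the sources used here. Genes missing from a library's file were set to 0. Expected counts were rounded to whole numbers (12.6% of those above 0 were not whole within 1e-06). Levels between genes use the deposited FPKM.

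Genes were kept with filterByExpr (minimum count 10, minimum total 15) and scaled by TMM. All 6 libraries entered 1 fit with 1 coefficient per subset in edgeR 4.0.16 (R 4.3.3) with its quasi-likelihood F test, Benjamini-Hochberg adjustment over 12127 genes and a threshold of 0.05. SEs are the absolute log2 fold change over the square root of F. The biological coefficient of variation was 15.2%, with 3 residual degrees of freedom. On simulated counts the fit for CD115+Ly6C+ against CD115+Ly6C- recovered 65.7% of the tested genes changed 2-fold and 31.6% of those changed 1.5-fold, over 11939 genes.

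The libraries held 17961541 to 19450329 expected counts, and counting error is small for most of the genes reported. No 2 libraries of a subset were duplicates: their counts differed by 19.3 to 21.4 chi-square per degree of freedom. The alternatives were DESeq2 1.42.0 (its test and its size factors), library totals, no filter, fits of only the 2 subsets compared, a replicate block, each library left out, the trend with gene length removed (lowess, span 0.3), and for summed FPKM 2 other scalings. RefSeq (GRCm38.p6) gave coordinates, overlaps and promoter windows, and all 46 genes matched. Python 3.11.15, pandas 2.3.3 and matplotlib 3.10.9 were used for the rest.

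The genes and lists were chosen with earlier results of these data known. Every proteasome gene was accounted for. Values by library are given for genes past the threshold (at most 12 per comparison and direction by adjusted p), the catalytic and immunoproteasome genes, and the highest and lowest gene of each class. From the pathway lists, at most 4 genes past the threshold per list and comparison are named, and other genes named, proteasome genes included, were chosen after their values were seen. One further gene list is not reported here.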

Additional observations from a re-analysis of the deposited data

How the results depend on the processing

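Proteasome genes called in CD115-Ly6C- against CD115+Ly6C+, in CD115-Ly6C- against CD115+Ly6C-, and in CD115+Ly6C+ against CD115+Ly6C- numbered 29, 15 and 4, and each set of 3 values here keeps that order. DESeq2's test called 33, 22 and 9, while over all genes it called 2538, 1182 and 1024 in the same directions, against 2333, 822 and 638 by edgeR. Library totals called 21, 3 and 1, with core medians (log2 fold change) of -0.45, -0.21 and 0.19 and regulatory medians of -0.25, -0.28 and -0.03, the last of which was 0.04 with TMM. With the length trend removed 11, 7 and 0 were called, with core medians of -0.27, -0.23 and 0.062 and regulatory medians of -0.28 in the first and -0.11 in the third. Psmg4 (0.11) and Psme1 (0.069) then turned positive in the first comparison (edgeR adjusted p = 0.601 and 0.702), and the cause was not tested. Leaving out 1 library gave 19 to 28, 0 to 15 and 0 to 4 calls, core medians of -0.64 to -0.56, -0.39 to -0.30 and 0.24 to 0.32, and regulatory medians of -0.51 to -0.34, -0.44 to -0.32 and -0.042 to 0.10. A lone library is assumed to vary like the other subsets. As a replicate block the replicate numbers gave 29, 10 and 2 calls, among them Psme3 in both comparisons with CD115+Ly6C+. Deviations of same-numbered libraries correlated at 0.152, -0.010 and -0.004 over genes. With so few libraries a subset, this cannot settle whether the numbers pair the libraries, and the labels do not say. DESeq2 size factors gave 30, 15 and 4 calls, no filter 32, 17 and 5, and fits of only the 2 subsets 29, 16 and 4.

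The log2 ratio of summed core FPKM was -0.50, -0.28 and 0.22, and -0.31, -0.23 and 0.079 with FPKM rescaled to one total per library; the geometric mean over genes gave -0.45 in the first comparison. For regulatory genes it was -0.24, -0.25 and -0.01, and rescaled -0.0499 in the first and -0.16 in the third. No processing tried here changed the sign of a core median. With 2 libraries a subset, small differences may be missed, and a p above the threshold does not show that subsets are alike. Psma8 and Mafg rest on few reads.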
